A study of Mus musculus with 4 samples.

Results

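Transcripts of 9 genes that hold back the cell cycle or set the level of p27 were examined in leukemia cells with and without CD37, a tetraspanin of leukocytes. The genes were taken by name from the deposited expression table, which lists 17104 genes, and all 9 were found in it. They comprise 2 inhibitors of the Cip/Kip family (*Cdkn1a*, *Cdkn1b*), 2 of the INK4 family (*Cdkn2c*, *Cdkn2d*), 2 genes of p27 degradation (*Skp2*, *Cks1b*) and 3 FoxO transcription factors (*Foxo1*, *Foxo3*, *Foxo4*). The libraries were made from poly(A) RNA of YFP+, c-kit+ leukemia stem cells (LSCs) sorted from bone marrow of male C57 mice 6 weeks after a secondary transplantation, with 2 libraries for CD37 fl/fl and 2 for CD37 -/-. In both groups the leukemia had been started by retroviral MLL-AF9-IRES-YFP, a fusion oncogene with a fluorescent tag, in lineage-negative marrow cells that carried floxed *Cd37* alleles and the tamoxifen-dependent recombinase Rosa26-CreERT2. The sample titles call the CD37 fl/fl group WT, although its cells carried the floxed alleles and the recombinase. Deletion had been induced with tamoxifen and the controls had received corn oil, so exposure to tamoxifen and active recombinase cannot be told apart from the loss of CD37. The age of the sampled mice is not given in the labels, and the labels call the replicates independent without naming separate mice, so p-values measure the spread between these libraries only.

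Cyclin-dependent kinases (CDKs) drive a cell from G1 into S phase, and small inhibitor proteins hold them back. INK4 proteins bind CDK4 and CDK6 and keep cyclin D away from them, while Cip/Kip proteins bind complexes of a cyclin and a kinase, above all those of CDK2. The p27 protein, product of *Cdkn1b*, is made in resting cells partly under FoxO factors and is removed at S-phase entry, when SKP2 and its small cofactor CKS1B present it to the SCF ubiquitin ligase. AKT phosphorylates FoxO factors and keeps them out of the nucleus. In blood stem cells and leukemias p18 and p27 are known as brakes on entry into the cycle, and much of the control of p27 acts on the protein, which RNA does not measure.

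Values are FPKM, which scale the reads of a gene by its length in kilobases and by the depth of its library. The kilobases were those of the genomic span with introns, so genes with long introns have a low FPKM for their reads. Whole reads were recovered from these values, with totals from 15327357 to 22627491 reads per library. *Cd37* was lower in CD37 -/- (56.6 and 46.8 FPKM against 23.2 and 22.9 FPKM, log2 fold change -1.12 ± 0.24 SE), and reads from outside the deleted exons count toward these values. Differences were tested with limma on log2(FPKM + 1) over the 6761 genes whose mean FPKM was 1 or more, a scale that understates the change of low genes. With the Benjamini-Hochberg adjusted p under 0.05, 0 genes passed (smallest adjusted p 0.0502, limma), and 1626 genes (24.0%) had an unadjusted p under 0.05. Genes are therefore described as passing at the unadjusted threshold. Of these 1626 genes 66.9% were higher in CD37 -/-, a share that went to 47.5% after quantile normalization, 33.2% after division by the upper quartile and 91.3% with every library at the same sum. Over all 6761 genes the log2 fold changes had a median of 0.11, which went to -0.02, -0.09 and 0.40 with these scalings, and the fold changes of single genes are to be read beside this shift. *Cdkn1b* and *Cdkn2c* were higher and passed under each of the 3 scalings.

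The libraries also differed in marker genes. *Kit*, by which the cells were sorted, was at 0.170 and 0.325 FPKM in the controls and 0.327 and 0.434 FPKM in CD37 -/-. Of 5 tested LSC and myeloid markers, *Ptprc* was higher (0.766 and 0.841 against 1.78 and 2.93 FPKM, log2 fold change 0.87) and *Mpo*, a granule enzyme of myeloid progenitors, was lower (80.3 and 51.6 against 34.4 and 20.8 FPKM, -1.24), while 3 did not pass. Of 9 erythroid markers in the table, 8 were higher in both CD37 -/- libraries, and their summed FPKM was 5.17 to 61.0 in CD37 fl/fl and 144 to 577 in CD37 -/-, with *Gata1* at 0 reads in CD37 fl/fl replicate 2. Mature neutrophil markers were higher in both CD37 -/- libraries for 5 of 8 genes, with sums of 274 to 1914 FPKM against 2519 to 3467 FPKM. Of these 8 genes 1 was higher at the unadjusted threshold, beside 16.1% of all tested genes. Over all 16973 genes above 0, both CD37 -/- libraries lay above both controls in 37.3% and below both in 17.6%. Macrophage and dendritic cell markers overlapped between the groups for 10 of 10 genes (sums of 111 to 391 FPKM against 63.3 to 148 FPKM). Of the B cell and of the T and NK cell markers 1 each was tested, and both were lower. *Cd79b* was at 12.5 and 15.4 against 8.02 and 6.16 FPKM (-0.89) and *Nkg7* at 94.6 and 118 against 40.1 and 41.3 FPKM (-1.35). Markers under the filter did not all go this way. Of 5 B cell markers in the table, 2 were higher in both CD37 -/- libraries and 1 was lower. Of 4 T and NK cell markers, 1 was higher and 1 lower, and *Cd3g* had at most 9 reads in any library. The part of these cells in the results on the inhibitors was not tested. In such bulk libraries fewer cells of a type and less RNA per cell cannot be told apart.

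Comparison of the groups showed *Cdkn2c*, which encodes p18, and *Cdkn1b*, which encodes p27, at higher levels in CD37 -/- LSCs. The mean FPKM of *Cdkn2c* was 4.46 times and that of *Cdkn1b* 3.55 times the CD37 fl/fl mean. The related inhibitor genes *Cdkn2d* and *Cdkn1a*, the degradation genes *Skp2* and *Cks1b* and the FoxO genes did not pass the unadjusted threshold. Of the 9 genes, 6 met the filter on low values, and 2 of these 6 were higher at an unadjusted p under 0.05, against 16.1% of all tested genes, while 0 were lower, against 7.96% of all. *Skp2*, *Foxo1* and *Foxo3* fell under the filter and were read from a fit of all 16973 genes above 0 and from limma-voom on recovered reads. In the fit of all genes none of these 3 passed, against 12.6% of genes that were higher and 4.59% that were lower. With limma-voom 2 of 9 were higher and 0 lower, against 19.2% and 6.10% of 12901 genes (25.3% in either direction). Both CD37 -/- libraries lay above both controls for *Cdkn1b*, *Cdkn2c*, *Cdkn2d*, *Skp2* and *Foxo4*, an arrangement seen for 38.2% of the 6761 genes and 37.3% of all genes above 0.

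**Figure D1:**
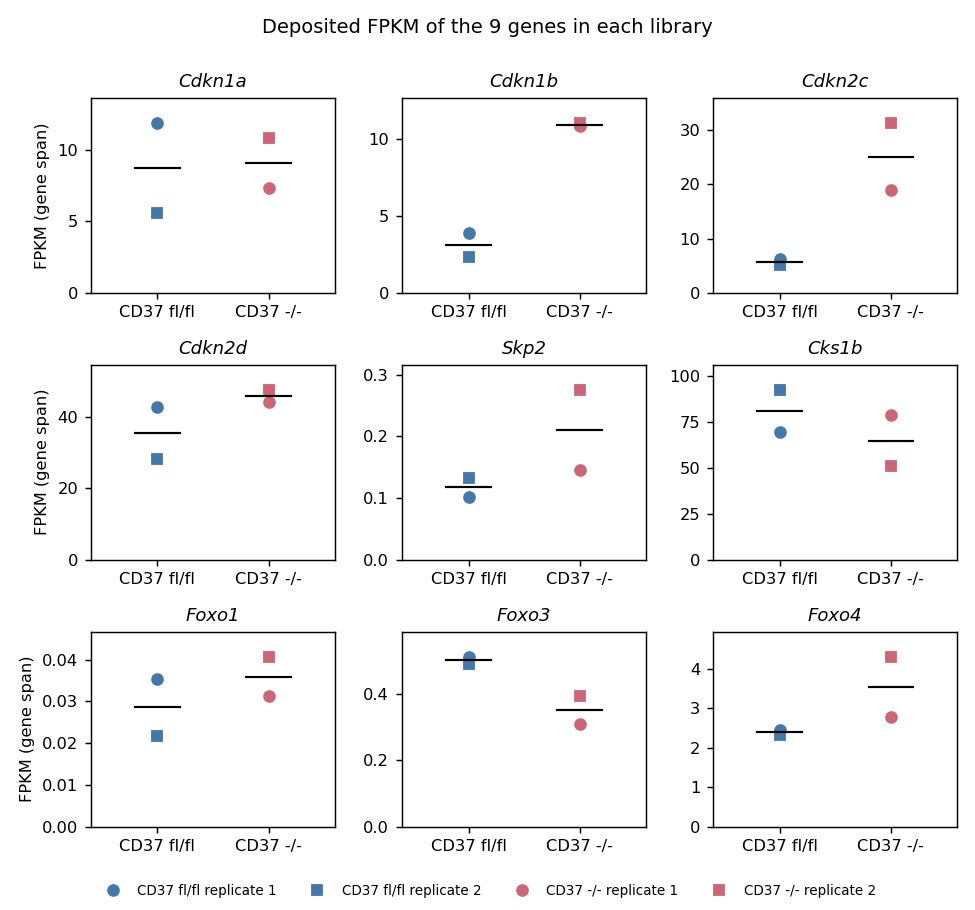
FPKM per kilobase of gene span of the 9 genes, on linear axes that start at 0 and differ between panels, with a point for each of 2 CD37 fl/fl and 2 CD37 -/- libraries (circles replicate 1, squares replicate 2) and a line at the group mean. Both CD37 -/- points lie above both CD37 fl/fl points for *Cdkn1b* and *Cdkn2c* by more than the spread within either group, whereas those of *Cdkn1a*, *Cks1b* and *Foxo1* are interleaved.

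*Cdkn1b* (ENSMUSG00000003031, chr6:134920401-134925513, plus strand, GRCm38) was measured at 3.87 and 2.29 FPKM in CD37 fl/fl replicates 1 and 2, and at 10.9 and 11.0 FPKM in CD37 -/- replicates 1 and 2. The corresponding reads were 303 and 203, then 985 and 1274. Both CD37 -/- libraries lay well above both controls and were close to each other, with means of 10.9 ± 0.108 against 3.08 ± 1.11 FPKM (SD, n = 2). The log2 fold change was 1.58 ± 0.25 SE, with a 95% interval from 0.97 to 2.18. Its unadjusted p from limma was 0.0008 and the Benjamini-Hochberg adjusted p was 0.0649, which ranged from 0.0319 to 0.255 over 18 alternatives. On recovered reads, limma-voom gave 1.89 ± 0.33 SE. By size of fold change *Cdkn1b* ranked 97th from the top among the 6761 genes tested.

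The 250 bases before the start of *Cdkn1b* are shown because this is the gene's own control region, where a FoxO or CCAAT motif would be looked for (RefSeq, GRCm38.p6, chr6:134920151-134920400, plus strand). Capitals mark the CCAAT boxes.
Cdkn1b: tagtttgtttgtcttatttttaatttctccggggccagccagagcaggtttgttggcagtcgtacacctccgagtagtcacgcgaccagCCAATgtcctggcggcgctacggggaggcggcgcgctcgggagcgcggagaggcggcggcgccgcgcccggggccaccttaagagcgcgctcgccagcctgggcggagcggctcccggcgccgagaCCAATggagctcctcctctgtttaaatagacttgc
The CCAAT boxes begin 161 and 35 bases before the start, and a GC box (GGGCGG) begins 61 bases before it. Searched on both strands, CCAAT occurs in 33.8% and GGGCGG in 32.7% of 32851 such mouse windows. The FoxO motif GTAAACA occurs in 3.17% of them, and these letters are not in this window or in those of the other 7 genes that have an entry.

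*Cdkn2c* (ENSMUSG00000028551, chr4:109660876-109667189, minus strand) had 6.15 and 5.11 FPKM in the controls, as against 18.9 and 31.3 FPKM after deletion of *Cd37*. In reads this was 595 and 559, then 2116 and 4471. The groups were again apart, and the CD37 -/- libraries differed more from each other than those of *Cdkn1b* did (25.1 ± 8.77 against 5.63 ± 0.735 FPKM, SD, n = 2). The log2 fold change of 1.94 ± 0.30 SE had a 95% interval from 1.21 to 2.67. The unadjusted p from limma was 0.000714 and the Benjamini-Hochberg adjusted p was 0.0648, with a range of 0.0234 to 0.255 over 18 alternatives. *Cdkn2c* ranked 43rd by fold change, and limma-voom on reads gave 2.12 ± 0.32 SE. The annotation gives the gene more than 1 start, and the windows before the upstream and the downstream start both lie within the gene span given above. Only the window before the downstream start is printed (RefSeq, GRCm38.p6, chr4:109665373-109665622, minus strand, with no motif to capitalize).
Cdkn2c: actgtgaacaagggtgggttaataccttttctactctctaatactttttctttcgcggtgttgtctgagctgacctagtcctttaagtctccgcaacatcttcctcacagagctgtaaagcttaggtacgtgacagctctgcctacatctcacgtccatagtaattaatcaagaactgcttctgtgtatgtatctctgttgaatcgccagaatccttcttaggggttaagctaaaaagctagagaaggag
The downstream window had a GC content of 42.8%, the *Cdkn1b* window 64.4% and the upstream *Cdkn2c* window 77.2%. In the upstream window GC boxes begin 95, 51 and 40 bases before the start. The downstream window holds no CCAAT box, GC box or FoxO motif in the letters given for *Cdkn1b*, no E-box (CACGTG) and no E2F motif (TTTCCCGC or else TTTGGCGC).

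*Cdkn2d* (ENSMUSG00000096472, chr9:21288410-21291407, minus strand), which encodes the INK4 protein p19, stood at 42.9 and 28.3 FPKM in CD37 fl/fl and 44.4 and 47.6 FPKM in CD37 -/-. Both CD37 -/- values were higher, but CD37 fl/fl replicate 1 lay close to them. The log2 fold change was 0.39 ± 0.29 SE, with a 95% interval from -0.33 to 1.11 and an adjusted p of 0.430 (limma, Benjamini-Hochberg). It was 0.10 without CD37 fl/fl replicate 2 and 0.68 without CD37 fl/fl replicate 1. *Cdkn1a* (ENSMUSG00000023067, chr17:29090976-29100727, plus strand) encodes p21, the inhibitor induced by p53, and had 11.8 and 5.57 FPKM in CD37 fl/fl and 7.31 and 10.8 FPKM in CD37 -/-. The CD37 -/- libraries lay between the controls, and the log2 fold change of 0.11 ± 0.37 SE had a 95% interval from -0.82 to 1.03. Its direction flipped with the scaling, being -0.13 after division by the upper quartile. A difference between the changes of p18 and p19 RNA, or of p27 and p21 RNA, was not tested.

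*Skp2* (ENSMUSG00000054115, chr15:9111985-9155425, minus strand), the F-box protein that recognizes p27, was covered by 68 and 100 reads in the controls and by 112 and 270 reads in CD37 -/-, or 0.102, 0.133, 0.145 and 0.275 FPKM. CD37 -/- replicate 2 was set apart from the other 3 libraries, which were close together. On reads the log2 fold change was 0.80 ± 0.49 SE, with a 95% interval from -0.32 to 1.92 and an adjusted p of 0.331 (limma-voom, Benjamini-Hochberg). The fit of all genes on the FPKM scale gave 0.11. It was 0.04 without CD37 -/- replicate 2 and 0.19 without CD37 -/- replicate 1. Only the latter passed the unadjusted threshold, in a fit where the single CD37 -/- library was assumed to vary like the controls. *Skp2* overlaps *Lmbrd2* on the opposite strand over 14876 bases, and the strand setting of the counting is not given in the sources used here, so their reads may not be separable.

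*Cks1b* (ENSMUSG00000028044, chr3:89415472-89418383, minus strand), the cofactor that SKP2 needs for p27, had 69.6 and 92.1 FPKM in CD37 fl/fl and 78.5 and 50.8 FPKM in CD37 -/-. These values overlapped, with CD37 -/- replicate 1 between the controls. The log2 fold change was -0.34 ± 0.33 SE, with a 95% interval from -1.15 to 0.47 and an adjusted p of 0.537 (limma, Benjamini-Hochberg). It was -0.03 without CD37 -/- replicate 2, -0.14 without CD37 fl/fl replicate 2, -0.54 without CD37 fl/fl replicate 1, -0.65 without CD37 -/- replicate 1 and 0.04 when each library was rescaled to the same sum, so no direction can be given.

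**Figure D2:**
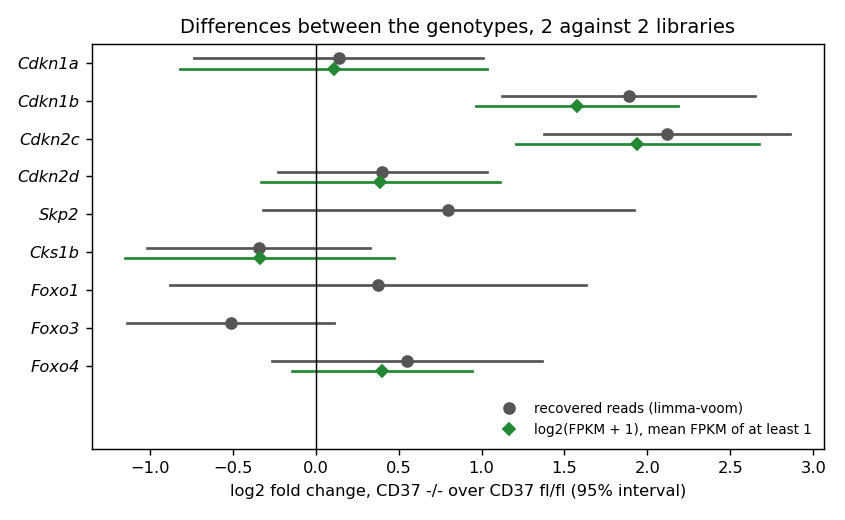
Log2 fold change, CD37 -/- over CD37 fl/fl, of the 9 genes with 95% intervals, from limma on log2(FPKM + 1) for the 6 genes that met the filter and from limma-voom on recovered reads for all 9. The intervals of *Cdkn1b* (0.97 to 2.18 on the FPKM scale) and *Cdkn2c* (1.21 to 2.67) lie above 0, and those of the other 7 genes include 0.

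Among the FoxO genes, *Foxo3* (ENSMUSG00000048756, chr10:42181841-42276755, minus strand) had 0.511 and 0.492 FPKM in CD37 fl/fl and 0.309 and 0.394 FPKM in CD37 -/-. Its reads were 744 and 809, then 521 and 847. Both CD37 -/- FPKM values were below both controls, as in 17.6% of all 16973 genes above 0. The log2 fold change on reads was -0.51 ± 0.27 SE, with a 95% interval from -1.14 to 0.11 and an adjusted p of 0.272 (limma-voom, Benjamini-Hochberg). In the fit of all genes on the FPKM scale it was -0.15 and did not pass. *Foxo3* passed the unadjusted threshold in 4 of 15 alternatives. Among these were quantile normalization on the FPKM scale (-0.30) and limma-voom with equal medians (-0.88).

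*Foxo4* (ENSMUSG00000042903, chrX:101254528-101260873, plus strand) had 2.46 and 2.32 FPKM in CD37 fl/fl and 2.77 and 4.30 FPKM in CD37 -/-. Its CD37 -/- values were both higher, as in 38.2% of the 6761 genes tested, but replicate 1 was near the controls. The log2 fold change of 0.40 ± 0.22 SE had a 95% interval from -0.14 to 0.94 and an adjusted p of 0.304 (limma, Benjamini-Hochberg). It was 0.15 without CD37 -/- replicate 2 and 0.65 without CD37 -/- replicate 1. *Foxo1* (ENSMUSG00000044167, chr3:52268336-52353221, plus strand) was the lowest of the 9 genes, at 46 and 32 reads for the controls and 47 and 78 reads for CD37 -/-. Relative to depth its groups overlapped (0.0354 and 0.0218 against 0.0312 and 0.0406 FPKM), and limma-voom gave 0.38 with a 95% interval from -0.88 to 1.63, so a change of *Foxo1* was not detectable in these libraries.

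Levels were compared between genes on recovered reads per kilobase of exon, scaled by depth as FPKM are. *Cks1b* was the highest in both groups, at 209 ± 41.2 in CD37 fl/fl and 167 ± 50.7 in CD37 -/- (SD, n = 2). In CD37 fl/fl it was followed by *Cdkn2d* (67.9 ± 19.7), *Cdkn1a* (23.9 ± 12.1), *Cdkn2c* (13.2 ± 1.73), *Foxo3* (6.29 ± 0.173), *Foxo4* (4.35 ± 0.178), *Cdkn1b* (3.46 ± 1.25), *Skp2* (0.648 ± 0.120) and *Foxo1* (0.280 ± 0.0942), and the ranges of neighbours overlapped only for *Foxo4* and *Cdkn1b*. In CD37 -/- the order was *Cks1b*, *Cdkn2d* (87.7 ± 4.29), *Cdkn2c* (59.0 ± 20.6), *Cdkn1a* (24.9 ± 6.78), *Cdkn1b* (12.3 ± 0.121), *Foxo4* (6.44 ± 1.96), *Foxo3* (4.41 ± 0.753), *Skp2* (1.16 ± 0.505) and *Foxo1* (0.352 ± 0.0651), with no overlap between neighbours. *Cdkn2c* thus stood above *Cdkn1a*, and *Cdkn1b* above both *Foxo3* and *Foxo4*, by group mean in CD37 -/- only.

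The makeup of each family followed these levels. *Cdkn2c* made up 15.0% and 18.2% of the summed level of *Cdkn2c* and *Cdkn2d* in the controls, and 34.4% and 44.8% in CD37 -/-. *Cdkn1b* made up 11.8% and 14.4% of the sum with *Cdkn1a* in the controls, and 37.8% and 29.4% in CD37 -/-. *Foxo3* went from 57.1% and 58.2% of the 3 FoxO genes to 42.0% and 37.6%. Each of these shares was without overlap between the groups, although *Cdkn2d* and *Cdkn1a* remained the larger part of their pairs in every library. Among the 6761 single genes tested, 38.2% lay above both controls and 23.7% below both in CD37 -/-. The shares of *Cdkn2c* and *Cdkn1b* restate the genes that passed and are not separate results. The summed FoxO level overlapped (11.2 and 10.6 against 9.23 and 13.2).

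The inhibitors were also set against the kinases they bind. The ratio of *Cdkn2c* to *Cdk6* RNA was 0.317 and 0.229 in the controls and 0.728 and 1.28 in CD37 -/-, again per exon. To *Cdk4* it was 0.213 and 0.107 against 0.601 and 0.917. Summed *Cdkn2c* and *Cdkn2d* over summed *Cdk4* and *Cdk6* gave 0.850 and 0.400 against 0.957 and 1.19. In that ratio CD37 fl/fl replicate 1 was close to CD37 -/- replicate 1. The ratio of *Cdkn1b* to *Cdk2* was 0.609 and 0.217 in the controls and 0.648 and 0.624 in CD37 -/-, so that CD37 fl/fl replicate 1 was close to the CD37 -/- libraries. The ratio of *Cdkn1b* to *Skp2* was 7.71 and 3.51 against 15.2 and 8.16, with CD37 fl/fl replicate 1 close to CD37 -/- replicate 2. With 2 libraries a group, an exact permutation test of such a ratio cannot go below p = 0.333.

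**Figure D3:**
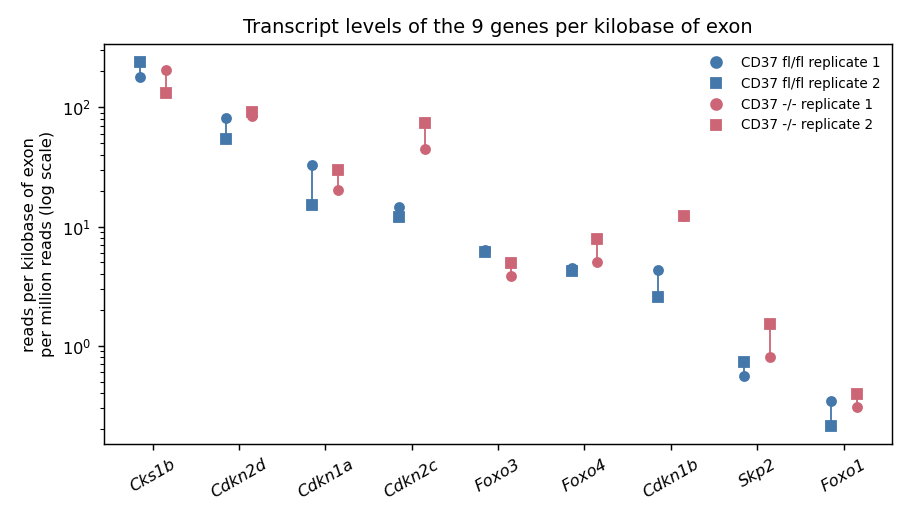
Recovered reads per kilobase of exon, scaled by depth, for the 9 genes on a log axis, with a point for each of 2 CD37 fl/fl (blue) and 2 CD37 -/- (red) libraries and a line joining the libraries of a group. *Cks1b* is highest and *Foxo1* lowest in both groups, and *Cdkn2c* lies above *Cdkn1a* in CD37 -/- (means of 59.0 and 24.9).

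Of the other CDK inhibitor genes, those that met the filter did not pass the threshold. *Cdkn1c*, which encodes p57, overlapped between the groups (13.2 and 10.1 against 14.8 and 7.48 FPKM), as did *Cdkn3*, a phosphatase of CDKs, so 0 of 2 tested passed in either direction. *Cdkn2a*, which encodes p16 and ARF, was below the filter in FPKM, with a span 17.2 times its exon length. It had 107 and 42 reads, then 312 and 274 in CD37 -/-. Per kilobase of exon this was 5.96 and 2.07 against 15.0 and 10.3. Both CD37 -/- libraries were higher, as in 37.3% of all genes above 0. The log2 fold change on reads was 1.82 with an adjusted p of 0.102 (limma-voom, Benjamini-Hochberg, unadjusted p 0.00925). *Cdkn2a* passed the unadjusted threshold in the fit of all genes (p 0.0368, limma), as did 12.6% of genes in that direction. *Cdkn2b*, which encodes p15, had 8 and 7 reads against 13 and 24. It passed in the fit of all genes (p 0.0461, limma) but not on reads (p 0.260, limma-voom).

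Of 18 tested genes that act with the SCF ligase or otherwise turn over p27 and p21, 2 were higher, 1 was lower and 15 did not pass, with a median log2 fold change of 0.10 beside 0.11 for all genes. After division by the upper quartile 0 were higher and 3 lower, and with every library at the same sum 5 were higher and 0 lower. Over all 6761 genes, 16.1% were higher and 7.96% lower in the fit reported. By upper quartile these shares were 8.58% and 17.3%, and at the same sum 30.3% and 2.88%. The counts of each list below stand beside these shares. At the same sum the cyclins and kinases had 7 higher and 0 lower, and the kinases and cofactors of FoxO 5 and 0. The FoxO targets then had 6 and 1, the transcription regulators 7 and 0, and the p53 targets 5 and 0. The core subunits of the SCF ligase did not pass, with log2 fold changes of -0.32 for *Skp1a*, 0.24 for *Cul1* and -0.56 for *Rbx1*. The genes that passed were *Psme3*, a proteasome activator (0.70), *Cul4a*, a cullin that acts on p21 and p27 (0.55), and *Nedd8*, the modifier that activates cullins (-0.74). *Rnf123*, whose product marks p27 for degradation in the cytoplasm in G1, was under the filter. It had 95 and 188 reads for the controls and 418 and 1059 for CD37 -/-. Its log2 fold change on reads was 2.02 (limma-voom, adjusted p 0.0814, Benjamini-Hochberg). *Ubac1*, another gene of p27 and p21 turnover, went the other way and did not pass (-0.35, and -0.50 with limma-voom). Both of its CD37 -/- values were below both controls, as in 23.7% of the 6761 genes.

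The cyclins and kinases that the inhibitors bind were tested for 9 of 12 genes, of which 5 were higher, 0 were lower and 4 did not pass (median 0.66), beside 16.1% higher and 7.96% lower of all genes. After division by the upper quartile 2 were higher and 0 were lower (median 0.42), beside 8.58% and 17.3% of all genes. In the same CD37 -/- libraries 8 of 9 erythroid and 5 of 8 neutrophil markers lay above both controls, beside 37.3% of all genes above 0. Of the 8 neutrophil markers 1 passed, and the part of either set was not tested. *Cdk2*, the main target of p27, had 6.25 and 10.4 FPKM in CD37 fl/fl and 16.5 and 17.4 FPKM in CD37 -/- (log2 fold change 0.98). Its partner *Ccna2* had a log2 fold change of 0.90 and *Ccne1*, the G1 partner, of 0.47. The mitotic genes *Ccnb2* (0.77) and *Cdk1* (0.66) passed as well. *Cdk4* (-0.18) and *Cdk6* (0.22), the targets of p18, did not pass.

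FoxO factors are regulated by phosphorylation and acetylation, and of 17 tested kinases and cofactors 2 were higher, 1 was lower and 14 did not pass (median 0.14), which went to 0 higher and 3 lower by upper quartile. *Akt1* had 9.82 and 10.8 FPKM in CD37 fl/fl and 16.6 and 20.5 FPKM in CD37 -/-, a log2 fold change of 0.78. The deacetylase *Sirt2* was higher (0.56) and *Sfn*, a 14-3-3 protein, was lower (-0.70). Of 14 tested FoxO target genes, 3 were higher, 1 was lower and 10 did not pass (median 0.18), against 1 higher and 3 lower by upper quartile. *Ccng2*, an atypical cyclin linked to cell cycle exit, had 0.792 and 0.778 FPKM against 2.66 and 3.01 FPKM (1.10), while *Klf2*, a quiescence factor of lymphocytes, had 194 and 143 FPKM against 32.0 and 35.7 FPKM (-2.27). *Cited2*, a coregulator that maintains blood stem cells, was higher (0.66). *Sod2* (0.04), *Cat* (0.43), *Gadd45a* (-0.45) and *Bbc3* (-0.29) did not pass.

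Transcription regulators of the inhibitor genes were tested for 14 of 20 genes, of which 4 were higher, 0 were lower and 10 did not pass (median 0.31), and by upper quartile 1 was higher. *Gfi1*, a repressor known to restrain blood stem cell cycling, had 16.5 and 19.3 FPKM in CD37 fl/fl and 43.5 and 43.4 FPKM in CD37 -/- (1.24). *Sp1* (0.64), which binds GC boxes, *Mdm2* (0.50), the ligase of p53, and *Stat5a* (0.50) also passed. *Trp53* (0.57), *Myc* (0.90), which represses inhibitor genes, and *Men1* (0.07), a cofactor of MLL at *Cdkn1b* and *Cdkn2c*, did not. Of 10 tested p53 target genes 4 were higher and 0 lower (median 0.30), beside 16.1% and 7.96% of all genes. By upper quartile 1 was higher and 3 were lower, beside 8.58% and 17.3% of all genes. Those higher in the fit reported were *Gtse1* (0.94), *Ccng1* (0.74), *Aen* (0.65) and *Mdm2*. None of the list genes that passed changed sign under the 3 scalings. *Cdkn1a* is itself on this list, with its log2 fold change of 0.11, and *Bax*, a death effector, did not pass (-0.69).

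**Figure D4:**
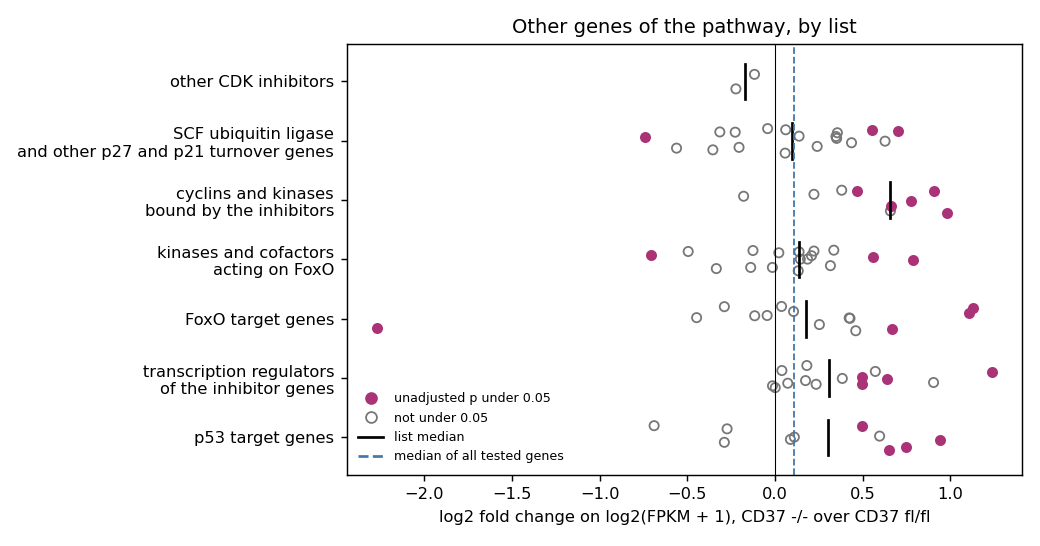
Log2 fold change, CD37 -/- over CD37 fl/fl, of each tested gene in 7 pathway lists, with filled points for an unadjusted p under 0.05, a black bar at the median of each list and a dashed line at the median of all tested genes. The cyclins and kinases have the highest median of the lists (0.66), and the turnover genes lie near the median of all tested genes (0.11).

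The genes whose 4 values ran closest to those of *Cdkn1b* were sought among the 2661 named genes whose mean FPKM was 5 or more, by the Euclidean distance of centred log2(FPKM + 1) over the 4 libraries. The nearest was *Kbtbd7* (distance 0.218), with a log2 fold change of 1.40. *Cxcr4*, the receptor that holds blood cells in the marrow, was next (0.236), with 16.8 and 13.8 FPKM against 42.8 and 45.4 FPKM. *Igfbp4* (0.287), *Itgb2* (0.349) and *Abhd5* (0.446) followed, and *Cdkn2c* stood at rank 29 (0.648). These distances rest on 4 libraries in 2 groups, and *Cdkn1b* and the other genes were measured in the same libraries.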

How the data were processed

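The authors deposited FPKM values of 17104 genes, 1 column per library and replicates not pooled. The labels list fastp 0.20.1, STAR 2.7.7a and featureCounts 2.0.0 among the tools and mm39 as the build, with no role or order, and the study's methods name limma. In each library 98.9% of values above 0 came out as whole reads (tolerance 0.05, chance 10%) with the gene spans of GENCODE M21 on GRCm38, to which 17045 identifiers (99.7%) were matched. Positions are from that build. These read counts, implied by the deposited values, served for depth, for levels per exon and for limma-voom. log2(FPKM + 1) was fitted with lmFit and eBayes with a trend (limma 3.58.1, statmod 1.5.0, R 4.3.3), without a block, with Benjamini-Hochberg adjustment over 6761 genes. Genes under a mean FPKM of 1 were read from a fit of 16973 genes and from limma-voom on 12901 genes averaging 10 reads or more. The code was tested on simulated data. Reads were recovered in Python 3.11.15 with numpy 2.4.6 and pandas 2.3.3, and plots were drawn by matplotlib 3.10.9.

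The 9 genes and the lists were chosen with earlier results of these data known. Named besides the 9 genes are Cd37, up to 5 genes per list with the smallest unadjusted p under 0.05, list genes with a stated role, the 5 nearest to Cdkn1b, and genes that mark cell types or may share reads with the 9. The values of 2 list genes are not reported here.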

Additional observations from a re-analysis of the deposited data

How the results depend on the processing

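Alternatives were a pseudocount of 0.1, other filters, 3 scalings, FPKM per exon, limma-voom, other eBayes settings, a replicate block and each library left out. *Cdkn1b* and *Cdkn2c* had an unadjusted p under 0.05 and the same direction in 18 of 18 alternatives, with log2 fold changes of 1.29 to 1.90 and 1.59 to 2.29. Their adjusted p was under 0.05 in 2 and 3 of these. The fit reported gave 0 genes with an adjusted p under 0.05 and 1626 with an unadjusted one, of 6761 tested (24.0%). A mean FPKM of at least 5 gave 45 and 755 of 3118 genes, and exon FPKM gave 16 and 2605 of 10428. Robust estimation gave 88 with an adjusted p under 0.05. Unadjusted, limma-voom gave 3270 of 12901 genes (25.3%), and 3136 with equal medians (chosen after seeing the data). All genes above 0 gave 2911 of 16973 (17.2%), and 2992 with a pseudocount of 0.1. Leaving out 1 library gave 809 (without CD37 -/- replicate 2) to 1593 genes. The replicate block gave 73 genes with an adjusted p under 0.05, and 549 adjusted and 3362 unadjusted with limma-voom. The labels do not say what the replicate numbers share, and the deviations of same-numbered libraries had a correlation of -0.04, so the numbers were not taken to pair the samples. *Cdkn1a* turned to -0.13 by upper quartile, to -0.23 with equal medians and ranged from -0.37 to 0.59 without 1 library, turning negative without CD37 fl/fl replicate 2 or CD37 -/- replicate 2. *Cks1b* turned to 0.0373 by TPM rescaling and *Foxo1* to -0.0032 by quantile normalization. *Cdkn2d* passed the unadjusted threshold by TPM rescaling (0.76). Up to 23.6% of the 31-base stretches of a *Ypel5* transcript also occur in transcripts of *Cdkn1a*, so these genes may share reads.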
